A study of Homo sapiens with 6 samples.

Results

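The receptors, adaptor and kinases that open the Toll-like receptor (TLR) signalling pathway were read out as RNA in MOLM-13, an established human leukaemia line of the acute myeloid, monocytic kind with a KMT2A-MLLT3 fusion. The 10 genes TLR1, TLR2, TLR4, TLR6, TLR9, MYD88, IRAK1, IRAK2, IRAK3 and IRAK4 were taken by symbol from a table of 56638 genes, and all 10 were found and had enough reads to be tested. One group of 3 libraries came from cells given 2 µM UC-764864 for 24 h, a compound that the series title names as a UBE2N inhibitor and whose number the design text writes as UC-744864. The reference was 3 libraries from cells given DMSO, the solvent, for the same time. All libraries came from the unmodified line in serum-containing RPMI medium, with no TLR ligand or genetic change in the labels. The comparison asks whether transcripts of the pathway that feeds into UBE2N differed after the compound.

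Toll-like receptors bind microbial molecules at the cell surface or in endosomes. TLR2 pairs with TLR1 or TLR6 to bind bacterial lipoproteins, TLR4 binds lipopolysaccharide, and TLR9 binds unmethylated CpG DNA inside endosomes. The adaptor MYD88 gathers IRAK4 and then IRAK1 or IRAK2 into a complex that activates the ubiquitin ligase TRAF6, which builds signalling chains together with UBE2N, while IRAK3, also called IRAK-M, restrains the pathway in monocytes and macrophages. IRAK1 has been studied as a drug target in myeloid leukaemia.

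TLR1 and TLR6, the partners of TLR2, fell after UC-764864, and IRAK1 rose. TLR1 was at 0.537 times and TLR6 at 0.610 times its DMSO level, and IRAK1, compared over 5 libraries, at 1.37 times. TLR2, TLR4 and IRAK4 had lower values in each UC-764864 library than in each DMSO library but did not pass over 6 libraries. TLR9, MYD88, IRAK2 and IRAK3 overlapped between the groups. In the 5-library fit that gives the IRAK1 call, TLR4 (edgeR adjusted p = 0.0481) and IRAK4 (0.0325) passed as lower, as did TLR1 and TLR6. TLR2 did not pass there (0.0587). In that fit 13.9% of all genes fell and 9.88% rose. Of the 9 genes that could be compared over 6 libraries, 2 fell and 0 rose (edgeR quasi-likelihood test, Benjamini-Hochberg adjusted p under 0.05). DESeq2 gave the same counts, where it called 9.52% of all genes lower and 6.56% higher. At an unadjusted p under 0.05 there were 5 lower and 0 higher, beside 16.6% of all genes lower and 14.9% higher at that threshold. At the adjusted threshold 8.13% of all genes tested fell and 5.11% rose, so that 2 of 9 is a small count to set beside that share. Rises made up 38.6% of all calls, 28.6% when libraries were scaled by size alone and 51.2% with a GC trend removed. Without library UDI0051 the count was 0 of 9. The 9 genes had −0.34 as their median log2 fold change, against 0.01 for all genes tested. Of the 9, 6 lie below 45% GC, where the median of all genes was −0.15 and 13.8% fell. In RNA from bulk cells, fewer cells of a kind and less RNA per cell cannot be told apart.

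The promoters below are printed because they belong to a receptor that fell (TLR6), to the receptor gene with most matches to the binding core of PU.1 (TLR4), and to the adaptor (MYD88). PU.1 is a myeloid transcription factor, encoded by SPI1. The sequences are RefSeq promoters of build GRCh38.p14, from 250 bases before to 50 bases after the annotated start, read 5′ to 3′ on the strand of the gene. Capitals mark GAGGAA, the PU.1 core, on either strand, and in MYD88 also GAAANNGAAA, the element bound by interferon regulatory factors. TLR6 lies on the minus strand at chr4:38856768-38857067, TLR4 on the plus strand at chr9:117704153-117704452, and MYD88 on the plus strand at chr3:38138411-38138710.
TLR6: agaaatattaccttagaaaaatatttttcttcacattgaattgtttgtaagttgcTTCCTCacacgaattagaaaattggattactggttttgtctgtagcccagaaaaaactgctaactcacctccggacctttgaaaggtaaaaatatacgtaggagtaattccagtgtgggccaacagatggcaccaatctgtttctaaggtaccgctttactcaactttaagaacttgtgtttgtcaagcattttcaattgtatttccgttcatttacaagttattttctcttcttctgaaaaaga
TLR4: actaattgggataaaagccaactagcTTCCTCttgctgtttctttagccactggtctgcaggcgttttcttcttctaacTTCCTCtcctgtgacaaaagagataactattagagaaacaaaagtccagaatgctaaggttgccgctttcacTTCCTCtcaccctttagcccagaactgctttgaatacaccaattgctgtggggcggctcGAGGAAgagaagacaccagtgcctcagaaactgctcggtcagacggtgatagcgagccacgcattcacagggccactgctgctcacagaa
MYD88: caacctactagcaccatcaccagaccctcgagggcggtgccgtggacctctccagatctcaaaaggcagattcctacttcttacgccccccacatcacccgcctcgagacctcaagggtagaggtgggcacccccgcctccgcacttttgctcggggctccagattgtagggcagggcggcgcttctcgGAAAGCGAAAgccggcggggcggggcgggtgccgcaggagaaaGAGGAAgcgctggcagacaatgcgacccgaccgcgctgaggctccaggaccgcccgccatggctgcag

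The PU.1 core was present 4 times in the TLR4 promoter, 2 times in that of TLR9 and once each in those of TLR6 and MYD88. The promoters of TLR2, IRAK1, IRAK2, IRAK3 and IRAK4 held none. Of all 35116 promoters of that length, 27.9% held at least 1. The AP-1 letters TGACTCA or TGAGTCA, also searched for, matched in the promoters of TLR9 and IRAK1 and in 4.95% of all promoters. The interferon element occurred in the MYD88 promoter 61 bases before the start and in 3.57% of all promoters. None of the 9 gene promoters that could be matched, TLR1 having no entry, held the kappaB consensus, which 9.08% of all promoters held. TLR6 had a promoter of 34.7% GC, TLR4 of 48.3% and MYD88 of 65.7%. SPI1 itself had no call, with 207 ± 36.8 CPM in UC-764864 libraries and 171 ± 38.8 CPM in DMSO libraries (SD, n = 3 each; log2 fold change 0.27, edgeR adjusted p = 0.302). A match of letters is a description of the sequence and says nothing of binding in these cells.

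Library totals ran from 17073654 to 25014437 counts after UC-764864 and from 16136156 to 24511499 after DMSO. In UDI0055, a DMSO library, 3799 rows stand at 0 in 2 unbroken runs of the table, and these were read as missing. Every other library held 50 or more counts in 30 of the 115 rows of the first run and in 369 of the 3684 rows of the second. The missing rows include IRAK1, which was therefore compared over the other 5 libraries in a fit of its own. The first principal component (56.2% of the variance) separated the treatments, and the second (20.4%) set UDI0052 and UDI0056 apart, in which genes of over 60% GC took 8.3% and 8.47% of the counts, against 10.0% to 11.6% in the others. Of 15 myeloid markers 13 were tested, and ITGAM (to 0.492 times its DMSO level, edgeR adjusted p = 0.00357), CSF1R (0.667 times, 0.0179) and HOXA9 (0.602 times, 0.00647) fell while LYZ (1.85 times, 0.00141) rose. The summed level of the 15 was 6676 to 7626 CPM after UC-764864 and 4494 to 4713 CPM after DMSO, most of it LYZ. The monocyte markers CD14, at 0.198 to 0.474 CPM, and CD68, at 0.286 to 0.721 CPM, were too low to be tested. Lymphocyte markers summed to 1.36 to 1.89 CPM after UC-764864 and 2.09 to 2.78 CPM after DMSO, 3 of 10 were at 0 in every library, and of 2 tested CD3D fell (log2 fold change −1.07, edgeR adjusted p = 0.0358) at 0.507 ± 0.047 CPM after UC-764864, against 1.09 ± 0.132 CPM after DMSO (SD, n = 3 each). Erythroid and megakaryocyte markers summed to 0.130 to 0.579 CPM after UC-764864 and 0.593 to 0.795 CPM after DMSO, with 6 of 10 at 0. Fibroblast and epithelial markers summed to 18.8 to 20.4 CPM after UC-764864 and 19.1 to 22.8 CPM after DMSO, mostly KRT18, with 3 of 10 at 0. Of the 4 tested PDGFRB fell (−1.45, edgeR adjusted p = 0.0122), at 0.554 ± 0.0914 CPM after UC-764864, against 1.55 ± 0.281 CPM after DMSO (SD, n = 3 each). The part of these marker differences in the results that follow was not tested.

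Levels are given as CPM, counts scaled to the TMM-normalised total of the tested genes, and per kb of exon they gave an order. IRAK1 was highest, at 54.1 ± 6.72 CPM per kb after UC-764864 (SD, n = 3) and 38.9 ± 4.95 after DMSO (SD, n = 2). IRAK3 followed at 17.8 ± 2.07 and 19.7 ± 2.12 CPM per kb, MYD88 at 14.1 ± 1.07 and 12.3 ± 1.32, IRAK4 at 8.95 ± 0.774 and 11.3 ± 1.25, and TLR2 at 7.14 ± 0.808 and 9.05 ± 0.872, each after UC-764864 and then after DMSO (SD, n = 3 each). Below them, TLR6, TLR9, TLR4 and TLR1 lay between 0.801 and 2.50 CPM per kb in all libraries, and IRAK2 was lowest, at 0.599 to 0.681. In the DMSO libraries the ranges of MYD88 and IRAK4 overlapped, as did those of TLR9 and TLR4 and of TLR4 and TLR1, while TLR6 lay above TLR9. In the UC-764864 libraries TLR6 and TLR9, TLR9 and TLR4, and TLR4 and TLR1 overlapped. The length is the union of all annotated exons (GENCODE release 29, build GRCh38), which is 13272 bases for TLR4 against 3483 to 10004 for the other 9, so that the TLR4 level per kb is low where long exons are unused.

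**Figure D1:**
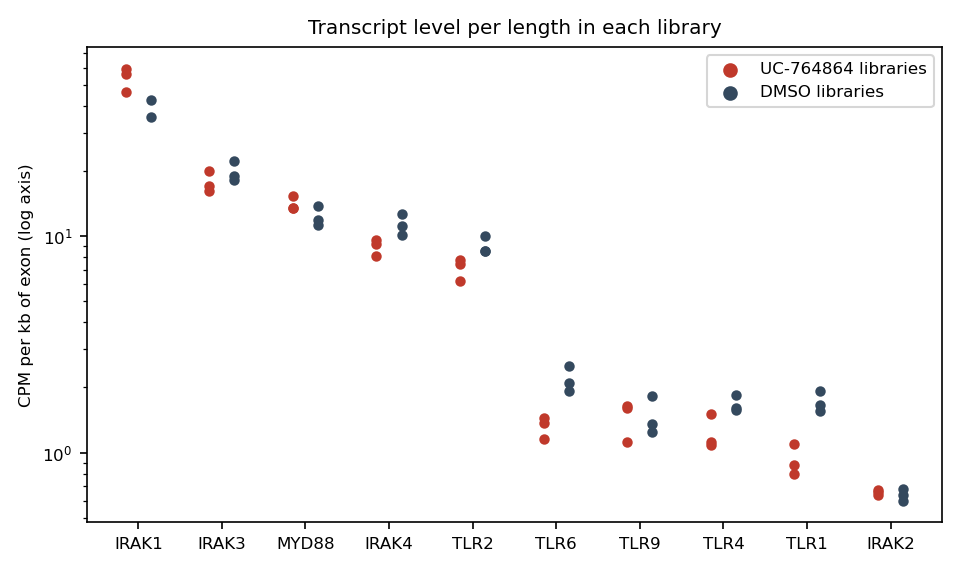
Each point is a library, with the gene on the x axis and CPM per kb of exon on a log y axis, UC-764864 libraries to the left (red) and DMSO libraries to the right (dark). IRAK1 (5 libraries) lies highest at 35.4 to 59.4 CPM per kb and IRAK2 lowest at 0.599 to 0.681, and TLR2 is the highest of the receptors.

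TLR2, the shared partner of the lipoprotein receptors, was measured at 32.5, 40.3 and 39.0 CPM in UDI0051, UDI0052 and UDI0053 (UC-764864), against 44.6, 44.5 and 52.5 CPM in UDI0054, UDI0055 and UDI0056 (DMSO). The groups did not overlap. Its log2 fold change was −0.34 ± 0.13 (SE), with a 95% interval from −0.63 to −0.06, and it did not pass (edgeR adjusted p = 0.1).

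TLR1, the partner for triacylated lipoproteins, stood at 3.97, 4.98 and 3.63 CPM in the UC-764864 libraries, against 7.56, 7.08 and 8.76 CPM in the DMSO libraries. These values come from 69 to 88 reads per UC-764864 library and 133 to 173 per DMSO library. All 3 UC-764864 libraries lay below all 3 DMSO libraries. TLR1 fell by 0.90 ± 0.17 (SE) on the log2 scale (edgeR adjusted p = 0.0109). Leaving out UDI0051 gave −0.86 and ended the call (adjusted p = 0.053), and so did keeping the missing rows as zeros (adjusted p = 0.0568).

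TLR6, the partner for diacylated lipoproteins, stood at 6.99, 8.74 and 8.26 CPM after UC-764864, against 12.6, 11.7 and 15.1 CPM after DMSO. Here too the groups were apart, with UDI0056 the highest. TLR6 fell by 0.71 ± 0.15 (SE) on the log2 scale (edgeR adjusted p = 0.016). The call was lost without UDI0051 (adjusted p = 0.0932), UDI0053 (0.0514) or UDI0054 (0.0512), and with missing rows kept as zeros (0.0619). TLR1 and TLR6 are neighbours with similar sequence, and 149 of the 75-base windows of their annotated transcripts are common to both, 3.14% of those of TLR1 and 2.45% of those of TLR6.

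**Figure D2:**
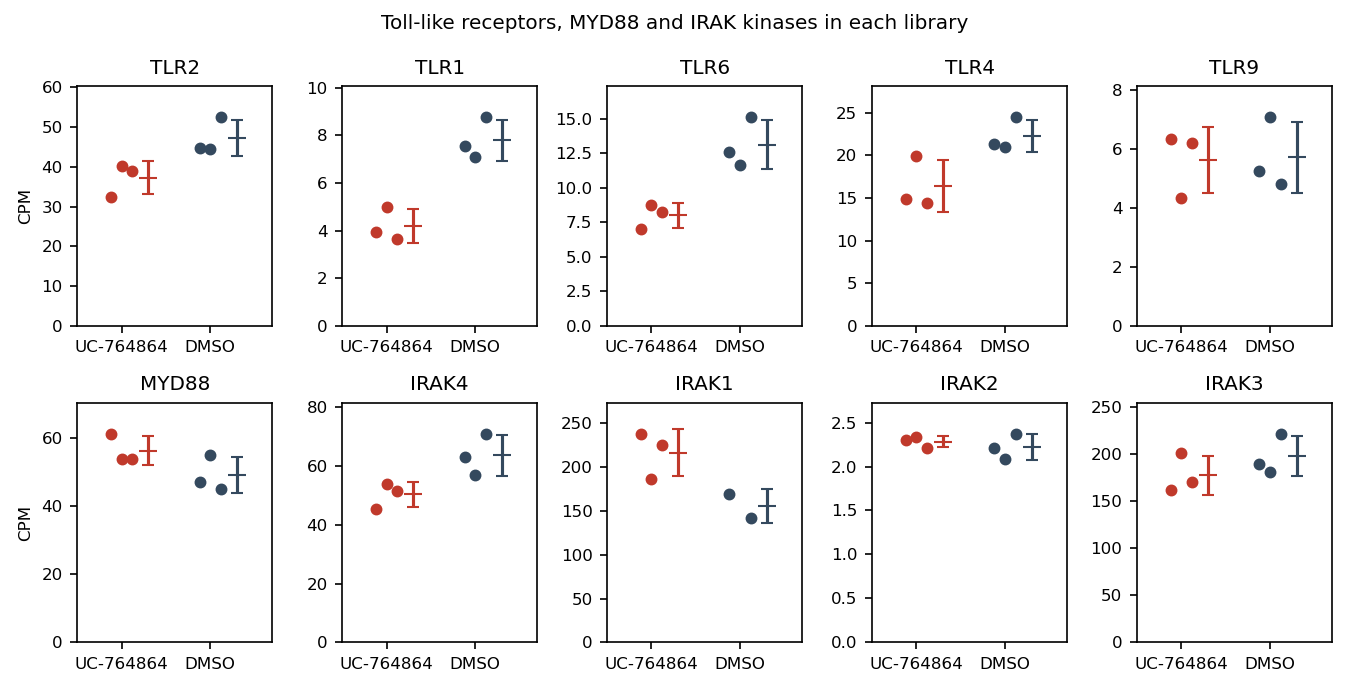
Each panel is a gene, with CPM on the y axis from 0, UC-764864 libraries on the left and DMSO libraries on the right, and bars for mean ± SD. TLR1, TLR6, TLR2, TLR4 and IRAK4 are lower in every UC-764864 library than in every DMSO library, and IRAK1, shown without UDI0055, is higher.

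Read against TLR2 in the same library, the partner transcripts were lower. These ratios use the same counts as the comparisons above and are not independent evidence. Per 100 TLR2 transcripts, on a per-length basis, there were 14.1, 14.2 and 10.7 of TLR1 in the UC-764864 libraries and 19.5, 18.3 and 19.2 in the DMSO libraries. TLR6 gave 18.6, 18.7 and 18.3 per 100 TLR2 after UC-764864, and 24.4, 22.6 and 24.9 after DMSO. Neither ratio overlapped between the groups, and each had p = 0.1 in a two-sided exact permutation test, the smallest that 3 against 3 libraries allow. TLR4 per 100 TLR2 overlapped, at 17.4 ± 2.53 after UC-764864 and 18.5 ± 0.239 after DMSO (SD, n = 3 each; exact permutation p = 0.7).

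TLR4, the lipopolysaccharide receptor, stood at 14.9, 19.9 and 14.4 CPM after UC-764864, against 21.3, 21.0 and 24.4 CPM after DMSO. UDI0052 was the highest of its group and came close to the DMSO libraries without reaching them. The log2 fold change of −0.44 ± 0.15 (SE; 95% interval −0.77 to −0.11) did not pass (edgeR adjusted p = 0.0746), and without UDI0052 it was −0.63 and passed (adjusted p = 0.03). It also passed in the fit on 5 libraries that gives IRAK1 (−0.50, adjusted p = 0.0481). LY96, the lipopolysaccharide-binding partner of TLR4, chosen after its values were seen, was at 0.426 ± 0.192 CPM in UC-764864 libraries and 0.906 ± 0.244 CPM in DMSO libraries (SD, n = 3 each), near the floor of 0.122 to 0.202 CPM that 3 reads make, and did not pass (edgeR adjusted p = 0.0791).

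TLR9, the endosomal DNA receptor, stood at 6.35, 4.34 and 6.21 CPM after UC-764864 and at 5.26, 7.08 and 4.81 CPM after DMSO. The lowest value of the UC-764864 group was that of UDI0052 and the lowest of the DMSO group that of UDI0056. The log2 fold change of −0.02 ± 0.20 (SE; 95% interval −0.46 to 0.42; edgeR adjusted p = 0.95) leaves room for changes of the size seen in TLR2 in either direction. Of its 75-base windows 84.1% are shared with a longer gene that overlaps it in GENCODE release 29, a gene not analysed here. Whether reads were divided between them in the authors' counting was not tested.

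The other Toll-like receptors were at or near the floor. TLR3 had 0 to 3 counts per library, TLR5 3 to 11, TLR10 0 to 1, and TLR7 and TLR8, both among the rows missing from UDI0055, had 3 to 9 and 3 to 13 in the other 5 libraries. None of these 5 passed the filter on low counts, and a difference was not detectable at this depth.

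MYD88, the adaptor shared by all the receptors tested here, stood at 15.3, 13.5 and 13.4 CPM per kb after UC-764864 and at 11.8, 13.8 and 11.3 CPM per kb after DMSO. UDI0055 of the DMSO group lay within the UC-764864 range. Its log2 fold change of 0.20 ± 0.12 (SE; 95% interval −0.08 to 0.47) did not pass (edgeR adjusted p = 0.303).

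IRAK4, the first kinase of the complex, stood at 45.6, 54.1 and 51.5 CPM after UC-764864, against 63.0, 57.1 and 71.0 CPM after DMSO. The groups did not overlap, though UDI0052 and UDI0055 lay close together. The log2 fold change was −0.34 ± 0.13 (SE; 95% interval −0.61 to −0.06) and missed the threshold (edgeR adjusted p = 0.0944). That threshold was met without UDI0055 (−0.41, adjusted p = 0.0385), in the 5-library fit on all rows (−0.43, adjusted p = 0.0325) and with each library's GC trend removed (−0.29, adjusted p = 0.00933).

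IRAK1, the X-linked kinase that IRAK4 activates, stood at 237.8, 186.3 and 225.3 CPM after UC-764864, against 169.5 CPM in UDI0054 and 141.5 CPM in UDI0056 after DMSO. The lowest UC-764864 library was UDI0052 and the lower DMSO library UDI0056, the pair that stood apart on the second component. Over these 5 libraries IRAK1 rose by 0.45 ± 0.13 (SE) on the log2 scale (95% interval 0.16 to 0.74; edgeR adjusted p = 0.0303), in a fit where 9.88% of 14186 genes rose and 13.9% fell. UDI0055, the library missing for IRAK1, had the largest share of counts in genes of over 60% GC, 11.6%. UDI0054 had 10.0% and UDI0056 8.47%. IRAK1 is at 63.0% GC. TLR9, the other member above 60% GC, moved from −0.02 over 6 libraries to 0.14 in the 5-library fit. The part of this in the IRAK1 call was not tested. The call was lost without UDI0051 (adjusted p = 0.14), UDI0053 (0.106) or UDI0056 (0.243) and when only library size was used for scaling (0.0524). Without UDI0056 or UDI0054 the DMSO group is a single library, assumed to vary like the UC-764864 libraries, and the log2 fold change was 0.32 without UDI0056 and 0.58 without UDI0054 (adjusted p = 0.0146).

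IRAK2, a kinase related to IRAK1 that sustains late signalling, was low at 2.30, 2.33 and 2.21 CPM after UC-764864 and 2.21, 2.09 and 2.37 CPM after DMSO. These are 36 to 51 reads per library, with overlapping groups and a 95% interval of the log2 fold change from −0.38 to 0.47 (edgeR adjusted p = 0.901). IRAK3, the restraining relative, stood at 161.9, 201.1 and 170.0 CPM after UC-764864 and 189.8, 181.1 and 221.5 CPM after DMSO. The groups overlapped, and its log2 fold change of −0.15 ± 0.13 (SE; 95% interval −0.43 to 0.12) did not pass (edgeR adjusted p = 0.435).

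Set against IRAK4 within each library, per length, IRAK1 stood at 734, 485 and 615 per 100 IRAK4 after UC-764864, against 379 and 280 after DMSO. The groups were apart, with a two-sided exact permutation p of 0.2, the smallest that 3 against 2 libraries allow. With IRAK1 higher and IRAK4 lower in each UC-764864 library, that outcome was already fixed and adds no evidence. Ratios to IRAK4 reuse the counts of the comparisons above and are not independent of them. IRAK1 is at 63.0% GC and IRAK4 at 42.1%, and the GC differences between libraries were not removed from this ratio. IRAK3 per 100 IRAK4 was 198 ± 11.9 after UC-764864 and 175 ± 4.55 after DMSO (SD, n = 3 each), without overlap (two-sided exact permutation p = 0.1, the smallest possible).

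**Figure D3:**
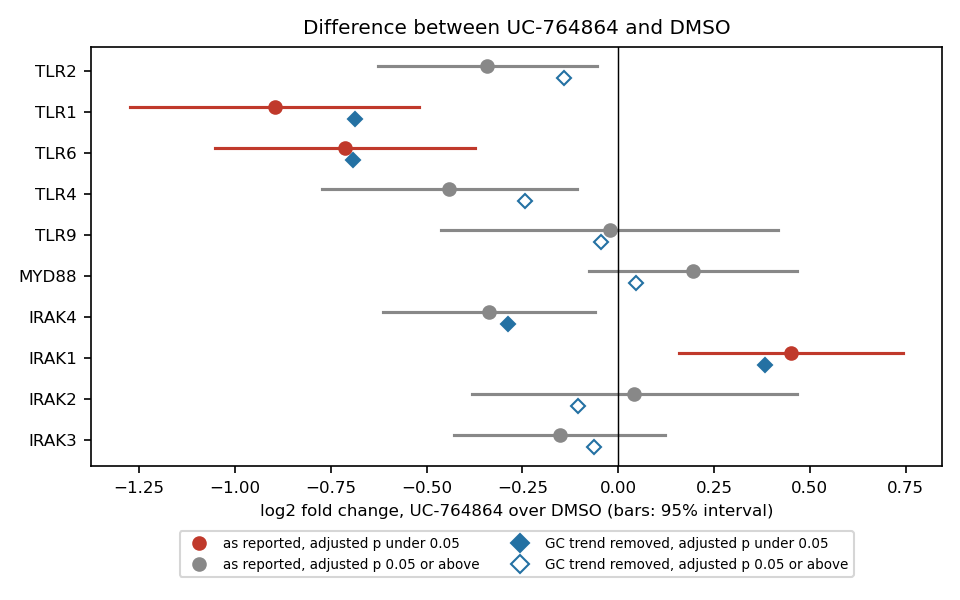
Circles are log2 fold changes of UC-764864 over DMSO with 95% intervals, red where the adjusted p was under 0.05, and diamonds are the same with each library's GC trend removed, filled where the adjusted p was under 0.05. TLR1 (−0.90), TLR6 (−0.71) and IRAK1 (0.45) are red, and with the GC trend removed IRAK4 (−0.29) is filled as well.

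Of the 9 genes, 5 had groups that did not overlap and were lower after UC-764864, and 0 were higher without overlap. Among all 13490 genes tested, 17.0% were lower and 19.0% higher without overlap.

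The members differ in GC content, and the libraries differ in how GC content relates to counts. TLR1, TLR2, TLR4, IRAK3, IRAK4 and TLR6 have a longest transcript of 39.2% to 42.8% GC, and all 6 had negative log2 fold changes. MYD88 and IRAK2 are at 51.9%, TLR9 at 61.7% and IRAK1 at 63.0%. Over all genes with a GC value in the 6-library fit, the median log2 fold change was −0.15 below 45% GC, where 13.8% fell and 2.61% rose. The median was 0.15 from 45% to 55%, and 0.06 above. With each library's trend removed, TLR1 was at −0.69 (edgeR adjusted p = 0.00244), TLR6 at −0.69 (0.000993) and IRAK1 at 0.38 (0.000383), and all 3 passed. TLR2 then stood at −0.14 (adjusted p = 0.185) and TLR4 at −0.24 (0.0755). Many more genes were called in these fits. Over 6 libraries 15.4% of 11647 genes fell and 16.2% rose. In the 5-library fit that gives IRAK1, 2445 of 12203 genes fell and 2680 rose.

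**Figure D4:**
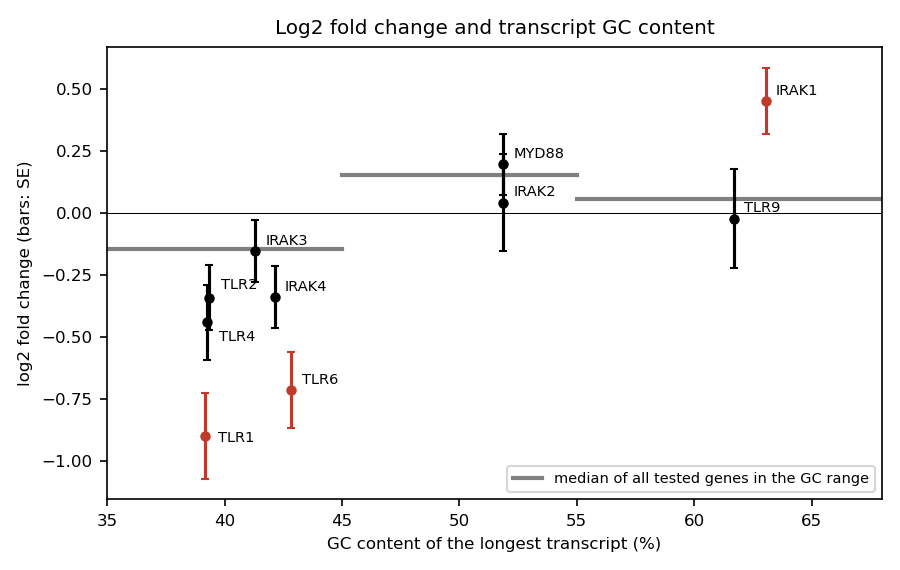
The x axis is the GC content of the longest annotated transcript in percent and the y axis the log2 fold change with SE bars, red where the adjusted p was under 0.05, with grey lines for the median of all tested genes in each GC range. TLR1, TLR6, TLR2, TLR4 and IRAK4 lie below the grey line at −0.15, IRAK3 lies on it, and IRAK1 lies above the line at 0.06. The IRAK1 point comes from the 5-library fit and the grey lines from the fit over 6 libraries.

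Single libraries moved these values by different amounts. For TLR1 the log2 fold change ran from −1.06 (without UDI0052) to −0.80 (without UDI0053), for TLR6 from −0.81 to −0.61, and for IRAK1 from 0.32 to 0.58. TLR4 ran from −0.63 to −0.35 and IRAK4 from −0.42 to −0.25.

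**Figure D5:**
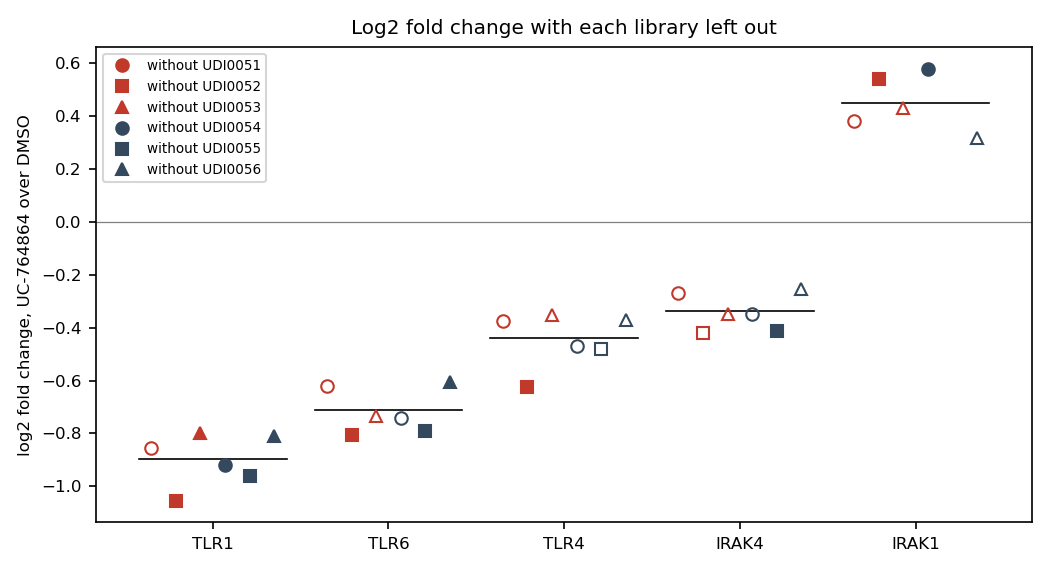
For 5 genes, each marker is the log2 fold change with a library left out, filled where the adjusted p was under 0.05, red for a left-out UC-764864 library and dark for a left-out DMSO library, and the black line is the value over all libraries used. All markers of TLR1, TLR6, TLR4 and IRAK4 lie below 0 and all of IRAK1 above 0 (a single DMSO library remains where UDI0054 or UDI0056 is left out), and TLR1 is open in 1 case against 3 for TLR6 and 3 for IRAK1.

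The rest of the pathway was described by 7 lists of 68 genes, of which 52 could be tested. Of these 52, 3 fell and 1 rose. All 4 were among the 50 tested over 6 libraries, and 3 of 50 is a smaller share than the 8.13% of all genes that fell, an order that depended on the settings. With the GC trend removed 25.0% of 48 fell, beside 15.4% of all genes, and with no filter 11.1% of 63 fell, beside 6.89%. CD36, a scavenger receptor that delivers lipids to TLR2 with TLR6, was at 14.3, 18.1 and 15.5 CPM after UC-764864, against 26.9, 23.9 and 34.7 CPM after DMSO, without overlap. CD36 fell by 0.83 ± 0.16 on the log2 scale (edgeR adjusted p = 0.011), and the call was lost without UDI0051 (adjusted p = 0.0536). With the GC trend removed the log2 fold change of CD36 was −0.28 (adjusted p = 0.0256). The other 6 co-receptors and chaperones tested did not pass, so that 1 of 7 fell, beside 8.13% of all genes. At an unadjusted p under 0.05 the list held 3 lower and 1 higher, beside 16.6% and 14.9% of all genes. HSP90B1, the chaperone that folds the receptors, was at 1428 ± 214 CPM in UC-764864 libraries and 1153 ± 58.8 CPM in DMSO libraries (SD, n = 3 each, edgeR adjusted p = 0.105). HSP90B1 was higher in each UC-764864 library than in each DMSO library.

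Adaptors and interleukin-1 family receptors gave 0 calls among 4 and 2 genes tested by edgeR, 0 by DESeq2 and 0 at an unadjusted p under 0.05. Of all genes tested over 6 libraries, edgeR called 8.13% lower and 5.11% higher, and DESeq2 9.52% and 6.56%. So few genes cannot be told from those shares. Their highest genes were the adaptor PIK3AP1, at 196 ± 10.1 CPM in UC-764864 libraries and 183 ± 12.2 CPM in DMSO libraries, and the receptor chain IL1RAP, at 57.3 ± 4.81 and 69.8 ± 15.8 CPM in the same order (SD, n = 3 each). Of 19 ubiquitin ligases, kinases and their partners below the IRAKs, 0 passed by edgeR and 0 by DESeq2, beside the same shares. A count of 0 among 19 does not show that these genes were unchanged. At an unadjusted p under 0.05 there were 2 lower and 1 higher, beside 16.6% and 14.9% of all genes. UBE2N, the named target of the compound, had the highest level of that list, with 159 ± 10.9 CPM in UC-764864 libraries and 189 ± 17.0 CPM in DMSO libraries (SD, n = 3 each; edgeR adjusted p = 0.156). Its groups did not overlap. UBE2N RNA says nothing of the activity of the protein.

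Of 10 inhibitors of the pathway, 1 rose and 1 fell, beside 5.11% and 8.13% of all genes tested over 6 libraries. So few genes cannot be told from those shares. RNF216, a ubiquitin ligase known to target Toll-like receptors for degradation, was at 79.6, 73.2 and 75.8 CPM after UC-764864, against 54.4, 61.9 and 51.5 CPM after DMSO, and rose by 0.45 ± 0.12 on the log2 scale (edgeR adjusted p = 0.03). DUSP1, a phosphatase that switches off MAP kinases, was at 35.4, 31.1 and 27.7 CPM after UC-764864, against 49.7, 39.7 and 41.8 CPM after DMSO, and fell by 0.48 ± 0.14 (adjusted p = 0.0421). Both calls were lost in each fit without UDI0051, UDI0052, UDI0053 or UDI0054 (adjusted p from 0.0559 to 0.175).

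Of 10 transcripts that TLR signalling induces, 1 fell and 0 rose, beside 8.13% and 5.11% of all genes. DESeq2 called 3 lower and 0 higher, beside 9.52% and 6.56% of all genes. At an unadjusted p under 0.05 there were 5 lower and 0 higher, beside 16.6% and 14.9% of all genes. The list's median was −0.51 on the log2 scale, against 0.01 for all genes tested over 6 libraries. The list did not move as one. TNF (log2 fold change 0.17, edgeR adjusted p = 0.413) and NFKBIA (−0.05, 0.816), chosen after their values were seen, did not pass. The chemokine gene CCL2 was at 4.24, 3.95 and 2.63 CPM after UC-764864, against 6.98, 5.60 and 6.52 CPM after DMSO, and fell by 0.82 ± 0.20 on the log2 scale (edgeR adjusted p = 0.0236). It was lost without UDI0053 (adjusted p = 0.0875) or UDI0054 (0.0939). IL8, the highest of the list, also called CXCL8, was at 42.8, 69.7 and 47.9 CPM after UC-764864 and 81.9, 55.6 and 125.3 CPM after DMSO. UDI0055 lay within the UC-764864 range, and IL8 did not pass (adjusted p = 0.0857).

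Over 9877 genes averaging 5 CPM or more, the profile over the 6 libraries nearest to that of TLR1 was that of GLMN (mean absolute difference 0.06 on the log2 scale), followed by KLF9 (0.07) and ZNF770 (0.08), and TLR6 came at rank 31 (0.11). Nearest to TLR6 were SLC38A2 (0.03), PLEKHA2 (0.04) and C16orf72 (0.04), and TLR1 came at rank 334. GLMN was at 14.4 ± 2.55 CPM in UC-764864 libraries and 28.9 ± 4.84 CPM in DMSO libraries, and SLC38A2, an amino acid transporter, at 176 ± 18.4 and 294 ± 51.1 CPM in the same order (SD, n = 3 each). The ranking follows both the treatment and the differences between libraries of a group.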

How the data were processed

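The labels' protocols give poly(A) selection and paired reads of 75 bp, called single stranded. The authors deposited raw counts per gene symbol, a column per library. HISAT2 2.0.5, featureCounts 1.5.2, FastQC 0.11.7 and GRCh37 are named, without roles, in the submitters' processing notes; no source used here gives the annotation release or strand setting, so a gene and an antisense neighbour cannot be told apart. No coordinates of the files' build are printed. A second deposited table pairs each column with UC-764864 or DMSO. No label says whether a group's libraries are separate cultures, so p-values measure the spread between these libraries, which may be technical. Pairs of libraries differed by a chi-square of 4.73 to 86.7 per degree of freedom, and all 6 were kept. Depth sets a floor of 3 counts, which covers counting error only.

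Rows were taken as missing where a library held 0 over an unbroken run with at least 20 rows of 50 or more counts in every other library, which left 52839 rows; this choice was made after the zeros were seen. Counts were fitted in R 4.3.3 with edgeR 4.0.16 (filterByExpr, TMM factors of 0.978 to 1.03, glmQLFit and glmQLFTest, treatment as the only term) and p-values adjusted by Benjamini-Hochberg over 13490 genes. IRAK1 and other missing rows were fitted on all rows of the other 5 libraries, adjusted over 14186 genes. CPM use TMM-scaled totals of the tested genes, also for IRAK1. The SE is the absolute log2 fold change over the root of the F statistic. The fits were also run on simulated counts with the same variability for every gene and no GC trend. That run cannot test how a GC trend affects the calls. Alternatives were RLE factors, library size alone, no filter, DESeq2 1.42.0, a removed GC trend (lowess, span 0.3, genes with a GC value), left-out libraries and rows as deposited; the 5-library fit for all members, and IRAK1 without UDI0052 and UDI0056, were added after seeing the data. Named genes were the 10 members, and in each pathway list the called genes and the highest one. Of each member called over 6 libraries, the 3 nearest profiles are named. The members, lists and rules were chosen with earlier results of these data known. Lists were matched by symbol, 2 genes through older symbols in RefSeq.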

Additional observations from a re-analysis of the deposited data

How the results depend on the processing

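No paired analysis was possible because the columns of the count table carry no replicate numbers. With rows as deposited, TLR1 (−0.92), TLR6 (−0.74) and IRAK1 (1.04, its 0 in UDI0055 read as a count) missed the threshold, 0 of 9 members and 0 and 0 other pathway genes were called lower and higher, and of all genes 125 were lower and 22 higher, against 1097 and 690. TLR4 passed with no filter (−0.45), without UDI0052 and UDI0056 (−0.55) and in the 5-library fit on all rows (−0.50). IRAK4 passed with the GC trend removed (−0.29) and in that 5-library fit (−0.43). IRAK1 missed it with library size only (0.40). TLR9 changed sign without UDI0052 and UDI0056 (0.0002128) and in the 5-library fit (0.14), and IRAK2 with library size only (−0.004383), the GC trend removed (−0.10) and the 5-library fit (−0.02694), all far from the threshold. With a library left out, log2 fold changes ran from −1.06 to −0.80 for TLR1, −0.63 to −0.35 for TLR4, −0.81 to −0.61 for TLR6, −0.12 to 0.17 for TLR9, 0.32 to 0.58 for IRAK1, −0.001855 to 0.08647 for IRAK2 and −0.42 to −0.25 for IRAK4. Members called lower ran from 0 to 3, other pathway genes from 1 to 7 lower and 0 to 2 higher, and all genes from 278 to 1729 lower and 62 to 1525 higher. Other pathway genes called lower, 3 as reported, were 7 with no filter, 5 with DESeq2, 12 with the GC trend removed and 5 without UDI0052 and UDI0056; those called higher, 1 as reported, were 5 with the GC trend removed. All genes called lower were 1676 with no filter and 1792 with the GC trend removed, and called higher 1881 with the GC trend removed. Library size alone gave 1271 lower and 508 higher. The cause was not tested. MYD88, TLR2 and IRAK3 kept their direction and missed the threshold under all alternatives run. IRAK2, TLR9 and TLR1 rest on under 200 reads per library, which limits what can be detected.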
